A study of Mus musculus with 3 samples.

Results

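Claudins and the proteins that anchor them form the tight junction, the seal between neighbouring epithelial cells. A set of 10 such genes, of the 32285 measured, was followed across the mouse colon: the claudins Cldn2, Cldn3, Cldn4, Cldn7, Cldn15 and Cldn23, the scaffolds Tjp1 and Tjp3 (also called ZO-1 and ZO-3), the membrane protein occludin (Ocln) and the plaque protein cingulin (Cgn). They were chosen by gene symbol, with no measured value in the rule, and all 10 were present in the files. Dissociated colon cells were captured in droplets and sequenced, each droplet carrying a barcode and each captured transcript a unique molecular identifier (UMI). The 3 groups gave 1 library each. All were germ-free mice to begin with. The PBS group received PBS, a saline buffer, the BT WT group was colonized with BT WT, and the BT mutant group with a mutant of BT. No library came from conventionally housed mice. The labels spell out neither BT nor the mutation, and give no strain, age, sex, time since colonization or number of animals per library.

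A claudin spans the membrane and pairs with claudins of the next cell, and the mix of claudins sets what can pass between the cells. Claudins 2 and 15 form pores for small cations, claudins 3 and 4 are best known as sealing members, and claudin 7 binds EpCAM and is also found along the lateral membrane. Tjp1 and Tjp3 bind the claudin tails from inside, occludin runs along the strands, and cingulin ties the plaque to actomyosin and microtubules. In the gut, cells divide in the crypt and mature as they move to the surface, and Cldn2 is known as a claudin of the crypt.

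The libraries held 42003444 (PBS), 55436776 (BT WT) and 54943483 (BT mutant) UMIs, and 3198, 7070 and 6138 cells passed the filters, sharing at most 13 barcodes between any pair of libraries. Of these, 1454, 4505 and 3774 were epithelial. With 1 library per group there was no test and no replicate spread. Levels below are UMIs of a gene summed over the cells of a class and scaled to counts per 1e6 UMIs of that class (CPM). Intervals are exact 95% intervals of the counts and cover counting error only. Cells were clustered without the junction genes, and clusters were named from markers by a rule of this work, so the names are rebuilt. Colonocyte-like cells (1114 cells of PBS, 3339 of BT WT and 3073 of BT mutant) carry markers of the absorptive cells of the colon, and goblet-like cells (150, 826 and 104) those of mucus-secreting cells. Tuft-like cells numbered 39, 75 and 114, enteroendocrine-like cells 27, 38 and 36, and dividing stem or transit-amplifying (stem/TA)-like cells 21, 32 and 48. Cluster 8 (103, 195 and 399 cells), led by Aqp4, Hao2, Gsdmc4 and Car2, scored for no class and stays unnamed. It is called the Aqp4/Hao2 cluster here. The colonocyte-like clusters were unevenly filled: cluster 11 held 334 cells, all of PBS, cluster 0 held 2536 BT WT cells against 2 of PBS, and cluster 1 held 2085 BT mutant cells against 4 of PBS. Such a cluster may be a library and not a cell type. Cluster 3, with 765 of the 1114 PBS cells, was shallow (median 873 UMIs in PBS), and haemoglobin genes were among the genes that led it. Cluster 8, goblet-like cluster 7 and the shallow colonocyte-like cluster 3 were the only epithelial clusters with at least 50 cells in every library.

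The members were genes of the epithelium in each library. Epithelial cells gave between 78.8% (Tjp1 in PBS) and 98.7% (Cldn2 in BT mutant) of a member's UMIs. B-like cells, which should lack tight junctions, set the level that free RNA gives: Cldn7 read 118, 99.5 and 96.5 CPM there in PBS, BT WT and BT mutant, against 2135, 2278 and 2368 CPM in colonocyte-like cells. Tjp1 was also above that level in fibroblast-like cells, at 64.6, 67.7 and 70.3 CPM against 11.5, 11.3 and 10.2 CPM in B-like cells. Over the classes with at least 50 cells, 7 of the 10 members had their highest epithelial level in the same class in all 3 libraries. Cldn3, Cldn7, Cldn23, Ocln and Cgn were highest in colonocyte-like cells, Cldn4 in goblet-like cells and Cldn15 in the Aqp4/Hao2 cluster. For Cldn2, Tjp1 and Tjp3 that class differed between libraries. Tjp1 read 87.5 CPM in goblet-like and 82.2 CPM in colonocyte-like cells of PBS, with overlapping intervals, and the 39 tuft-like cells of PBS, where Tjp3 was highest, fell under the 50 cells required.

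**Figure D1:**
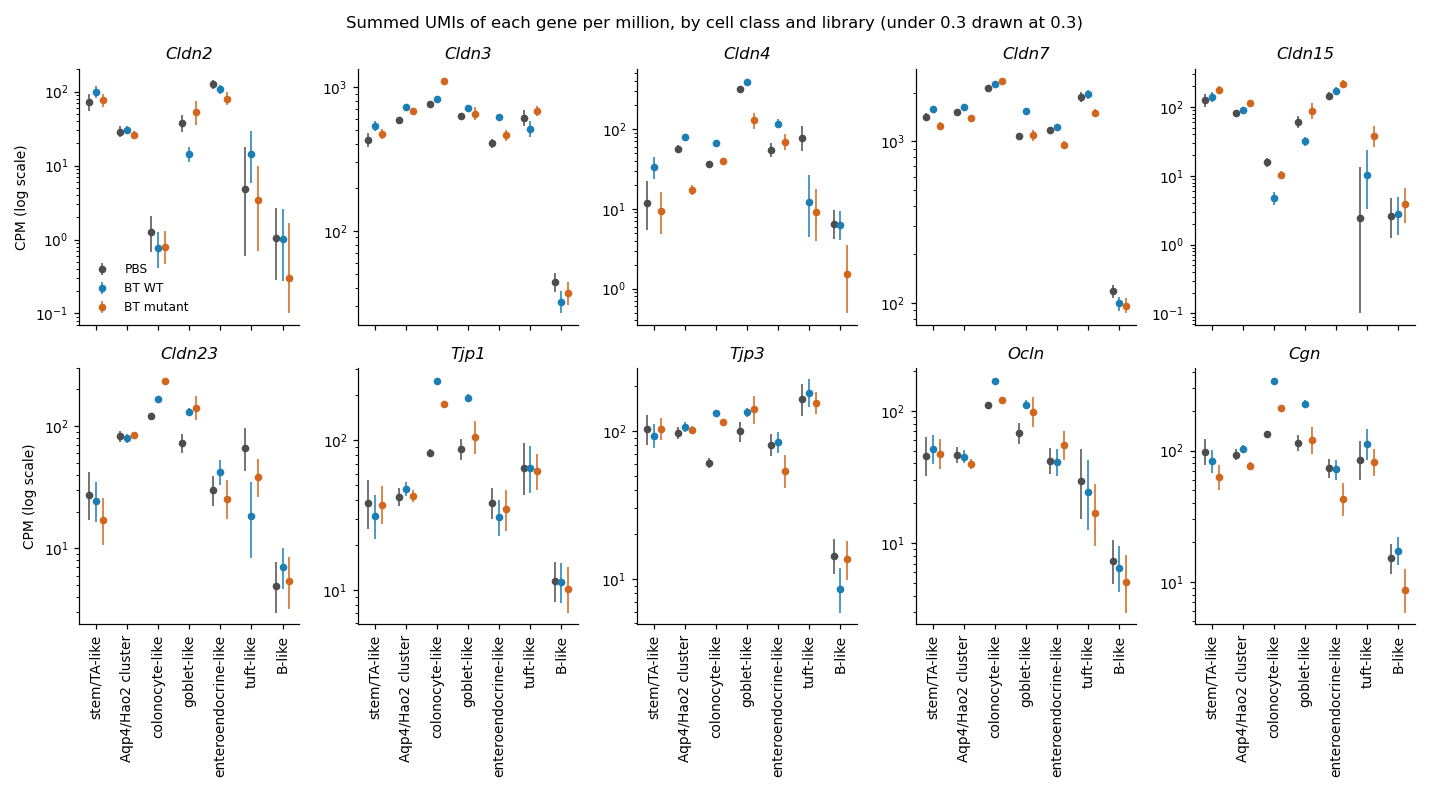
Level of each of the 10 genes (CPM, log axis) in 6 epithelial groups and in B-like cells, with 1 point per library and exact 95% Poisson intervals of the counts as bars. Values under 0.3 are drawn at 0.3. Cldn2 sits at the B-like level over all colonocyte-like cells and far above it in stem/TA-like and enteroendocrine-like cells, and Cldn4 peaks in goblet-like cells.

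The pore-forming claudins Cldn2 and Cldn15 and the sealing claudin Cldn4 showed the sharpest differences, between cell classes for the first pair and between libraries for Cldn4. The bases before their RefSeq starts (GRCm38.p6) are shown for that reason, 250 bases each, 5′ to 3′ on the strand of the gene. Cldn2 lies at chrX:139800828-139811386 (plus strand), Cldn15 at chr5:136966616-136975858 (plus) and Cldn4, a gene of 1 exon, at chr5:134945119-134946934 (minus). The stretches are chrX:139800558-139800807 for Cldn2, chr5:136967619-136967868 for Cldn15 and chr5:134946935-134947184 for Cldn4. The last 25 bases of the Cldn15 stretch lie in an exon of a longer annotated transcript. Capitals mark, in Cldn2 and Cldn15, TTTAT or its reverse ATAAA, the core of the site bound by the intestinal factors Cdx1 and Cdx2. In Cldn2 they also mark the TATA box TATAAA, which holds the ATAAA match, and in Cldn15 and Cldn4 the AP-1 site TGANTCA.
Cldn2: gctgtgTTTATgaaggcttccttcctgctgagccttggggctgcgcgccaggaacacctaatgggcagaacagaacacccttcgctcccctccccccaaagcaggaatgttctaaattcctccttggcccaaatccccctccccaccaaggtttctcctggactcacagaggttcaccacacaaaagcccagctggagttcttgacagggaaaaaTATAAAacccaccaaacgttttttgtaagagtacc
Cldn15: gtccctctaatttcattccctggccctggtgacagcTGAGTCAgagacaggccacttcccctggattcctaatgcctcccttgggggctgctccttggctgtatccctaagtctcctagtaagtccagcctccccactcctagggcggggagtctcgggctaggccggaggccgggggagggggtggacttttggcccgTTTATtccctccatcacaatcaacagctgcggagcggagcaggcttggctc
Cldn4: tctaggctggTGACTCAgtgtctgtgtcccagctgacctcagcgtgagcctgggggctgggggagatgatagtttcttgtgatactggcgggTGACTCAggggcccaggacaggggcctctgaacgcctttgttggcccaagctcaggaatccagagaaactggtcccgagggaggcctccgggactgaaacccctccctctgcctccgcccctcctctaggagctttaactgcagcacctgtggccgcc
The Cldn2 TATA box begins 35 bases before the start, and the AP-1 sites of Cldn4 begin 240 and 158 bases before it. On either strand, the CDX core is found in 37.3% of 32851 such stretches of the genome, the TATA box in 12.4% and the AP-1 site in 6.75%. Among the 12 stretches of 9 members that matched the table, 4 hold the CDX core (Cldn2, Cldn15, Tjp1 and Tjp3), 2 the AP-1 site (Cldn4 and Cldn15) and 1 the TATA box (Cldn2). GC boxes (GGGCGG) are found in 8 of the 12 against 32.7% of all stretches, and a grainyhead site (AACNGGTT) in 1 of the 12, that of Cgn, against 1.79%. A match is a string of letters and not a measured binding site.

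Cldn2 was high in stem/TA-like and enteroendocrine-like cells and at the free-RNA level in colonocyte-like cells. Its level in stem/TA-like cells was 72.2 CPM in PBS, 101 in BT WT and 76.9 in BT mutant. It was 125, 108 and 80.9 CPM in enteroendocrine-like cells. The Aqp4/Hao2 cluster stood between, at 28.9, 30.4 and 25.9 CPM. Over all colonocyte-like cells Cldn2 read 1.26, 0.763 and 0.805 CPM, no higher than the 1.05, 1.0 and 0.301 CPM of B-like cells within counting error. The shallow colonocyte-like cluster 3 alone read higher, at 6.75, 31.8 and 11.5 CPM, on few UMIs. Cldn2 in BT WT over PBS differed by 1.05-fold in the Aqp4/Hao2 cluster (95% interval 0.844 to 1.31), and in BT mutant over BT WT it was 1.17-fold lower (0.98 to 1.41).

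Cldn15, the other cation pore, followed the same order over these classes, but not over goblet-like cells. Stem/TA-like cells read 125, 140 and 177 CPM in PBS, BT WT and BT mutant, enteroendocrine-like cells 145, 173 and 217 CPM and the Aqp4/Hao2 cluster 81.4, 89.6 and 114 CPM. Colonocyte-like cells read 15.8, 4.69 and 10.3 CPM. Goblet-like cells read 60.7, 31.6 and 88.6 CPM of Cldn15, below the Aqp4/Hao2 cluster, with overlapping intervals in PBS and BT mutant. Their Cldn2 stood above that cluster in PBS (37.3 CPM, overlapping intervals) and in BT mutant (52.8 CPM), but not in BT WT. Both genes were found together in 14 of 21, 22 of 32 and 30 of 48 stem/TA-like cells and in 23 of 27, 29 of 38 and 23 of 36 enteroendocrine-like cells. These counts bound detection only. At 1000 UMIs per cell at most 1 cell of any library held both in either class, so the pair was not compared with the shallower colonocyte-like cells. The stem/TA-like cells were deeper, with medians of 30625, 34177 and 21534 UMIs against 1250, 3918 and 3254 in colonocyte-like cells. When every cell was thinned to 1000 UMIs, Cldn15 was still found in 19.0%, 12.5% and 17.0% of stem/TA-like cells, and in 11.7%, 6.67% and 11.3% of the Aqp4/Hao2 cluster. It was found in 2.27%, 0.315% and 0.623% of thinned colonocyte-like cells, and in 0.587%, 0.45% and 0.362% of thinned B-like cells (median 2765 to 3489 UMIs before thinning).

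Among goblet-like cells the pore claudins marked 1 cluster. In cluster 14.1 (28, 33 and 17 cells), led by Mptx1, Spink4, Agr2 and Reg4, several of them known from secretory cells of the deep crypt, Cldn15 read 152, 235 and 266 CPM and Cldn2 94.6, 108 and 160 CPM. In cluster 7 (117, 522 and 69 cells), led by Clca1, Tff3, Zg16 and Fcgbp, Cldn15 read 2.99, 2.08 and 7.29 CPM and Cldn2 0.996, 0.416 and 3.65 CPM. Over the goblet-like class, Cldn2 was 2.62-fold lower (1.85 to 3.69) in BT WT than in PBS and 3.70-fold higher (2.36 to 5.68) in BT mutant than in BT WT, while cluster 14.1 supplied 28 of 150, 33 of 826 and 17 of 104 goblet-like cells. Both directions turned when each library was clustered apart, with log2 ratios of 5.14 and -3.86. The enteroendocrine-like cluster also held Spink4, Agr2 and Mptx1 among its leading genes. With medians of up to 54630 UMIs it may hold doublets, and their part in its levels was not tested.

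**Figure D2:**
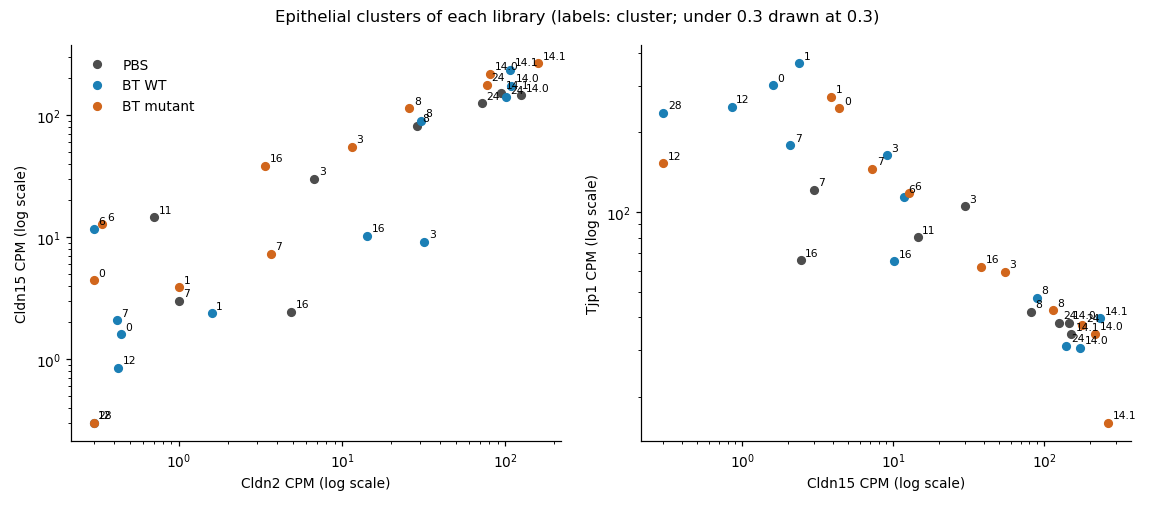
Levels (CPM, both axes log) of Cldn2 against Cldn15 and of Cldn15 against Tjp1, with 1 point per epithelial cluster and library with at least 15 cells and the cluster number beside it. Clusters 24 (stem/TA-like), 14.1 (goblet-like) and 8 and the enteroendocrine-like cluster sit at high Cldn2 and Cldn15 and low Tjp1, and colonocyte-like clusters 0 and 1 at the opposite corner.

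Within clusters, Cldn15 was higher in BT mutant than in PBS. In the Aqp4/Hao2 cluster it was 1.40-fold higher (1.25 to 1.57), from 386 UMIs in PBS and 1323 in BT mutant (1.01-fold, 0.528 to 2.09, with cells thinned to 1000 UMIs), and in BT mutant over BT WT it was 1.27-fold higher (1.15 to 1.40). It was higher in BT mutant than in PBS in 7 of the 7 epithelial clusters with at least 15 cells in both libraries, with an interval above 1 in 6 of them, the exception being goblet-like cluster 7 with 2 and 3 UMIs. Of 7668 genes with at least 5 UMIs in each of these clusters, 2.56% were higher in all 7. Over all colonocyte-like cells the order was the opposite, 15.8 CPM in PBS against 10.3 CPM in BT mutant (1.54-fold lower, 1.25 to 1.89), where most of the PBS UMIs came from cluster 11, which holds no BT mutant cell.

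Cldn4 was lower in the BT mutant library than in the BT WT library in every epithelial cluster compared. In the Aqp4/Hao2 cluster its level was 55.9 CPM in PBS (49.3 to 63.0, 265 UMIs), 79.6 CPM in BT WT (73.1 to 86.6, 553 UMIs) and 17.3 CPM in BT mutant (15 to 19.8, 201 UMIs). The BT mutant interval lies far below both others. Cldn4 was thus 4.61-fold lower (3.92 to 5.44) in BT mutant than in BT WT, 3.23-fold lower (2.68 to 3.90) than in PBS, and 1.43-fold higher (1.23 to 1.66) in BT WT than in PBS. It was the only member at least 1.5-fold apart in this cluster, 1 of 10 in BT mutant over BT WT and 1 of 10 in BT mutant over PBS, where 15.9% and 18.8% of all genes with at least 20 UMIs were. In BT WT over PBS none of the 10 was, against 13.8% of all genes. These counts use all UMIs of each cell. With every cell thinned to 1000 UMIs, Cldn4 rested on 4 UMIs in PBS, 15 in BT WT and 3 in BT mutant, too few for the minimum of 20 over both libraries, and was 10.2-fold lower (2.89 to 55.1) in BT mutant than in BT WT and 5.17-fold lower (0.874 to 35.3) than in PBS. Other members with at least 20 thinned UMIs were then also at least 1.5-fold apart: Tjp3 was 2.38-fold higher (0.783 to 9.66) in BT WT and 2.58-fold higher (0.933 to 9.93) in BT mutant than in PBS, on 4 UMIs in PBS. Cgn was 2.14-fold lower (1.14 to 4.02) in BT mutant than in BT WT, and the intervals of Cldn2, Cldn15 and Ocln, and of Cgn against PBS, spanned 1. At 1000 UMIs per cell Cldn4 was found in 3.88%, 6.67% and 0.752% of the cluster's cells, and in 0.881%, 0.375% and 0.181% of B-like cells.

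The goblet-like class, where Cldn4 was highest, showed the same order of libraries: 317 CPM in PBS, 392 CPM in BT WT and 128 CPM in BT mutant. In goblet-like cluster 7 alone the levels were 384, 497 and 208 CPM, 2.39-fold lower (1.83 to 3.18) in BT mutant than in BT WT and 1.85-fold lower (1.40 to 2.49) than in PBS. Cldn4 was lower in BT mutant than in BT WT in 11 of 11 epithelial clusters with at least 15 cells in both libraries, with an interval below 1 in 10 of them. Of 7263 genes with at least 5 UMIs in each of these clusters, 3.24% were lower in all 11, and of the 8 members among them Cldn4 and Cgn were. The size varied. It was 5.21-fold (2.73 to 11.4) in colonocyte-like cluster 0, 1.95-fold (1.47 to 2.56) in cluster 1 and 1.33-fold (1.16 to 1.52) in cluster 6, and in tuft-like cells 1.36-fold with an interval that spans 1 (0.388 to 4.45). Against PBS it was lower in BT mutant in 6 of 7 clusters, with an interval below 1 in 5 of them. The exception was enteroendocrine-like cells, at 69.3 against 54.7 CPM. Colonocyte-like cells entered this count only through the shallow cluster 3. Over all colonocyte-like cells Cldn4 was higher in BT mutant than in PBS, with a log2 ratio of 0.14. In their clusters with medians of at least 10000 UMIs it read 35.7 CPM in PBS (32.1 to 39.5) and 49.1 CPM in BT mutant (45.2 to 53.3). Most of those PBS cells were of cluster 11, which holds no BT mutant cell. Of 7668 genes, 6.36% were lower in all 7 clusters, and no share was taken for 6 of 7. Cldn7 gave the same counts against PBS, 6 of 7 with 5 intervals below 1. Cldn7 was also lower in BT mutant than in BT WT in 10 of 11 clusters, with 9 intervals below 1. It gave the most UMIs of the members, so its intervals exclude 1 at small differences (log2 ratio -0.22 in the Aqp4/Hao2 cluster). Cgn was lower in BT mutant than in PBS in 6 of 7, with 4 intervals below 1. No share of all genes was taken for these counts of Cldn7 and Cgn, or for any count of intervals, so they say little about these members. Cldn4 in PBS stood above both BT libraries in tuft-like cells, at 78.0 CPM against 12.2 and 9.03 CPM. It did so too in goblet-like cluster 14.1, at 197 CPM against 79.3 and 16 CPM. The free RNA read in B-like cells moved too, with 6.54, 6.28 and 1.5 CPM. Median depth in the Aqp4/Hao2 cluster was 36267, 24564 and 23110 UMIs, the mitochondrial share 12.5%, 11.6% and 10.1%, and genes known to respond to dissociation summed to 8649, 8709 and 6842 CPM. Their part in the result was not tested.

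**Figure D3:**
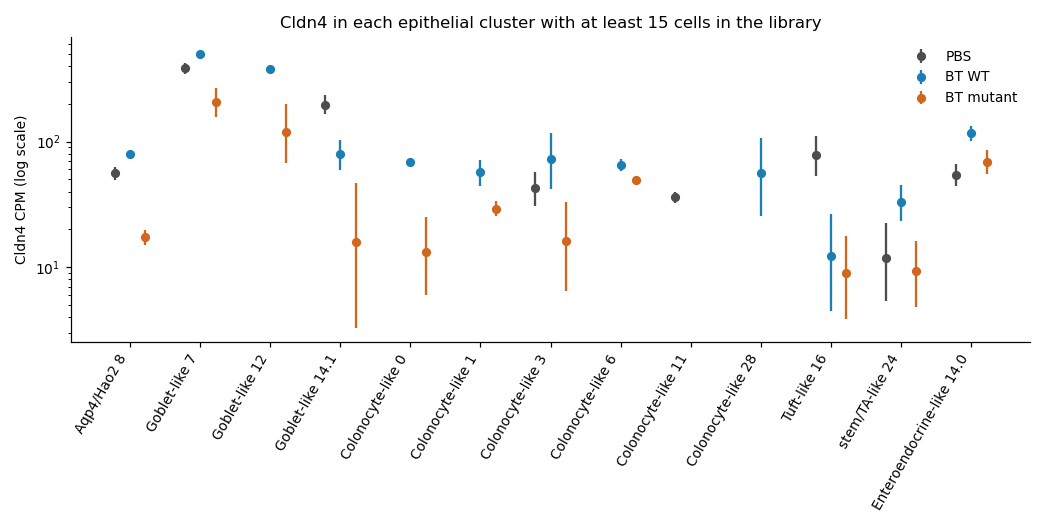
Cldn4 (CPM, log axis) in each epithelial cluster with at least 15 cells in the library, with 1 point per library and exact 95% Poisson intervals as bars. The BT mutant point lies below the BT WT point in all 11 clusters that show both, and the goblet-like clusters 7 and 12 hold the highest levels.

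Cldn3 (chr5:134986214-134987472), whose gene lies next to Cldn4 with 39279 bases and no annotated gene between them, did not share the pattern. It read 591, 720 and 685 CPM in the Aqp4/Hao2 cluster and, in the same order of libraries, 490, 647 and 601 CPM in goblet-like cluster 7. Its highest level was in the colonocyte-like cluster 6, led by Car1, Fabp2 and Mgat4c, at 1184 CPM in BT WT and 1322 CPM in BT mutant, against 796 CPM in cluster 11 of PBS. Clusters 0 and 1 held 677 and 722 CPM in BT WT and 676 and 769 CPM in BT mutant.

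Cldn23 (chr8:35824712-35826559), a claudin of differentiated epithelium, peaked in the same cluster. It read 252 CPM in BT WT and 321 CPM in BT mutant in cluster 6, against 127 CPM in cluster 11 of PBS and 79.3 to 84.8 CPM over the libraries in the Aqp4/Hao2 cluster. It was also 1.75-fold higher (1.36 to 2.27) in BT WT than in PBS in goblet-like cluster 7, and 1.73-fold higher (1.13 to 2.61) in BT mutant than in PBS. Cldn7 (chr11:69964779-69967885) gave the most UMIs of the 10 in each epithelial class. It lay between 911 CPM (cluster 7, BT mutant) and 2688 CPM (cluster 6, BT WT) over the epithelial clusters with at least 15 cells, and the libraries differed by 1.08-fold (1.05 to 1.11) in BT WT over PBS and 1.17-fold (1.14 to 1.19, lower) in BT mutant over BT WT in the Aqp4/Hao2 cluster.

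Tjp1, Cgn and Ocln had the reverse layout of the pore claudins, with high levels in colonocyte-like clusters 0 and 1. Tjp1 (chr7:65296165-65527781) read 301 and 365 CPM in these clusters in BT WT and 247 and 272 CPM in BT mutant. It read 114 and 118 CPM in cluster 6, 80.1 CPM in cluster 11 of PBS, 42.0, 47.5 and 42.5 CPM in the Aqp4/Hao2 cluster and 38.1, 31.3 and 37.3 CPM in stem/TA-like cells. Cgn (chr3:94760069-94786492) was laid out alike, with 404 and 421 CPM in clusters 0 and 1 of BT WT, 196 CPM in cluster 6 and 103 CPM in the Aqp4/Hao2 cluster. Ocln (chr13:100496507-100552718) read 204 and 211 CPM in clusters 0 and 1 of BT WT, 83.4 CPM in cluster 6 and 45.1 CPM in the Aqp4/Hao2 cluster. Among the epithelial clusters of the BT libraries, clusters 0 and 1 were also richest in the nuclear RNA Malat1: together with the small cluster 28 they held 87358 CPM of it in BT WT and 81267 CPM in BT mutant, against 27478 and 19844 CPM in cluster 6. Whether this bears on the scaffold levels was not tested.

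Tjp3 (chr10:81273207-81291581) read highest, by class, in tuft-like cells, at 181 CPM in BT WT and 156 CPM in BT mutant, and 163 CPM in the 39 tuft-like cells of PBS. The next class, goblet-like cells, read 134 and 140 CPM in BT WT and BT mutant, and only in BT WT did its interval not overlap that of tuft-like cells. By cluster, goblet-like cluster 7 of BT mutant read 189.5 CPM on 52 UMIs, above the 156 CPM of tuft-like cells, with overlapping intervals. Tjp3 overlaps Apba3 and Cldn3 overlaps Wbscr25, each on the other strand. Tjp1 overlaps Gm44794 and Gm44792 on the same strand and Gm44795 on the other. Whether these overlaps affect the counts was not tested.

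**Figure D4:**
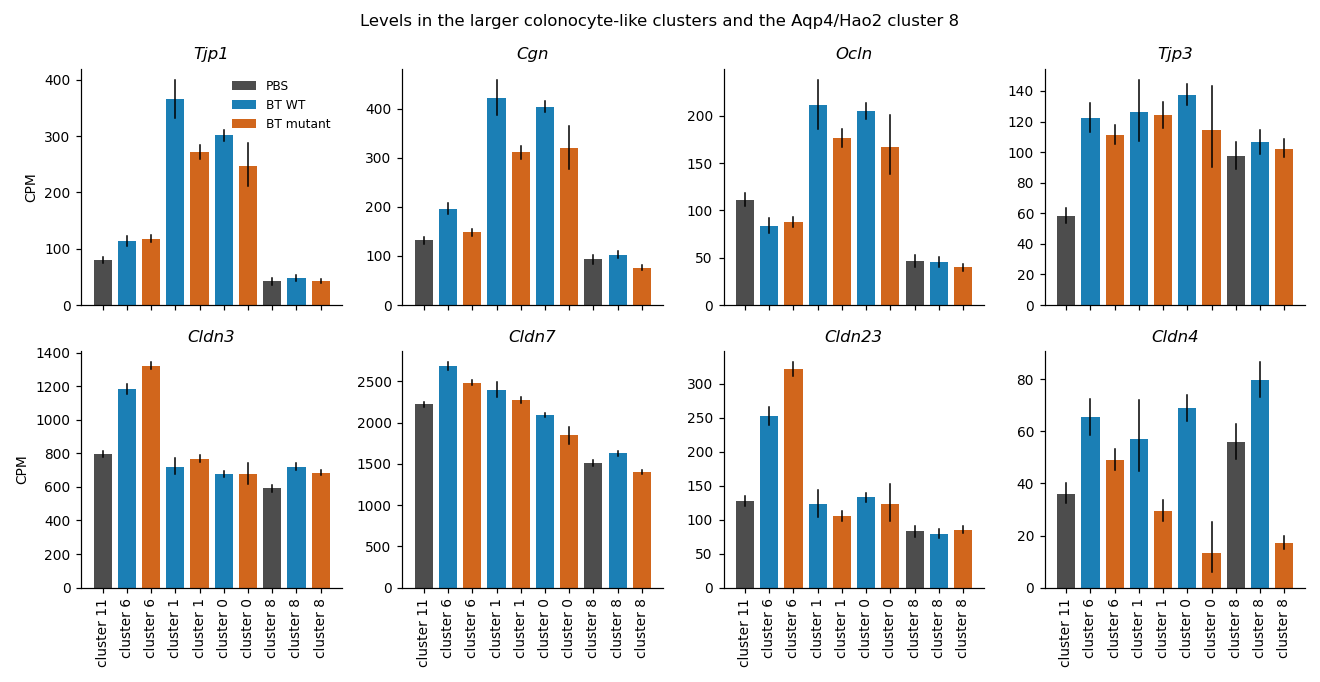
Levels (CPM, linear axes from 0) of 8 members in the larger colonocyte-like clusters and in the Aqp4/Hao2 cluster 8, with bars coloured by library and exact 95% Poisson intervals. Tjp1, Cgn and Ocln are highest in clusters 0 and 1, and Cldn3 and Cldn23 in cluster 6.

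Over all colonocyte-like cells, BT WT stood above PBS for the scaffolds. Tjp1 read 82.2, 248 and 175 CPM in PBS, BT WT and BT mutant, 3.02-fold higher (2.82 to 3.25) in BT WT than in PBS. Cgn read 134, 341 and 210 CPM, 2.53-fold higher (2.39 to 2.68). Tjp3 read 60.7, 132 and 116 CPM, 2.17-fold higher (2.0 to 2.37), and Ocln 110, 167 and 121 CPM, 1.52-fold higher (1.42 to 1.62). With Cldn4, which was 1.84-fold higher (1.64 to 2.06), these made 5 members at least 1.5-fold higher, and Cldn2 and Cldn15 made 2 at least 1.5-fold lower, Cldn2 on 14 UMIs in PBS and 14 in BT WT, at the free-RNA level. The 7 of 10 compare with 52.0% of all 11970 genes tested (34.4% higher, 17.7% lower), and the members' median log2 ratio of 0.53 with 0.25 over all genes. So large a share of all genes differed that these counts say little about the members. BT mutant over BT WT had 3 of 10 at least 1.5-fold apart (Cldn4 and Cgn lower, Cldn15 higher), against 30.3% of all genes. BT mutant over PBS had 6 of 10 (Cldn23, Tjp1, Tjp3 and Cgn higher, Cldn2 and Cldn15 lower), against 34.1%. Without Cldn2 the counts were 6 of 9 in BT WT over PBS and 5 of 9 in BT mutant over PBS.

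The libraries filled the class with different clusters. Deep clusters, with medians of at least 10000 UMIs, gave 90.6% of the class's UMIs in PBS (cluster 11, and 9 cells of cluster 6), 29.3% in BT WT and 59.2% in BT mutant (cluster 6). Restricted to these 343, 209 and 517 cells, a choice made after seeing the data, the scaffold differences shrank or turned. Tjp1 read 79.6, 114 and 118 CPM, 1.43-fold higher (1.29 to 1.59) in BT WT than in PBS, and Cgn read 133, 196 and 148 CPM, 1.48-fold higher (1.36 to 1.60). Ocln read 110, 83.4 and 87.5 CPM and so was 1.32-fold lower (1.18 to 1.48) in BT WT. Tjp3 kept its difference, at 58.9, 122 and 111 CPM, 2.07-fold higher (1.85 to 2.32) in BT WT and 1.89-fold higher (1.71 to 2.08) in BT mutant than in PBS. In these deep cells 3 of the 9 members with at least 20 UMIs were at least 1.5-fold apart in BT WT over PBS (Cldn4, Cldn23 and Tjp3, all higher) and 3 in BT mutant over PBS (Cldn3, Cldn23 and Tjp3, all higher), against 32.8% and 29.2% of all genes. None was in BT mutant over BT WT, against 19.9%. Because cluster 11 holds only PBS cells, its cell state and its library cannot be told apart.

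**Figure D5:**
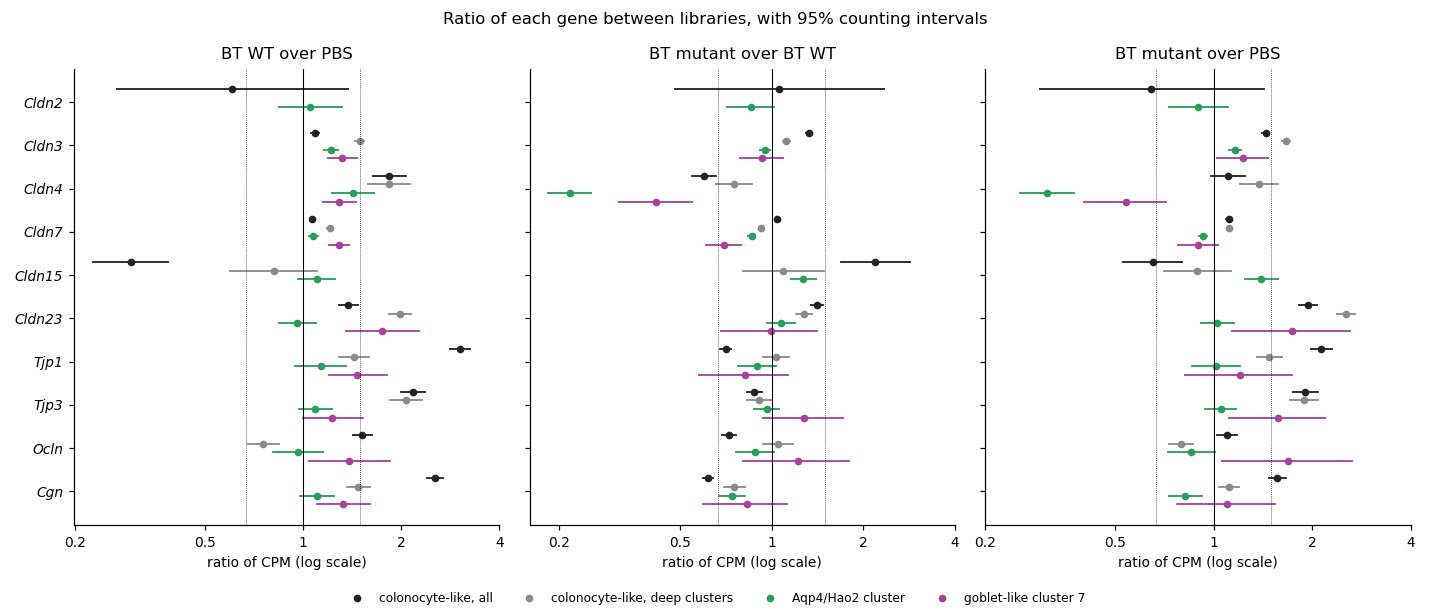
Ratio of CPM between libraries for each member (log axis) in colonocyte-like cells, in their deep clusters, in the Aqp4/Hao2 cluster and in goblet-like cluster 7, with exact 95% conditional binomial intervals. Dotted lines mark 1.5-fold either way, and genes with under 20 UMIs over both libraries are left out. Cldn4 lies furthest left in BT mutant over BT WT, and in the Aqp4/Hao2 cluster the other 9 members lie within the dotted lines in all 3 comparisons.

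In goblet-like cluster 7, 8 members had at least 20 UMIs. In BT WT over PBS 1 of them (Cldn23, higher) was at least 1.5-fold apart, against 28.3% of all genes. BT mutant over BT WT had 1 (Cldn4, lower), against 36.7%, and BT mutant over PBS had 4 (Cldn23, Tjp3 and Ocln higher, Cldn4 lower), against 38.1%. Ocln rested there on 65 UMIs in PBS and 30 in BT mutant (1.69-fold, 1.06 to 2.64). Tjp1, Tjp3 and Ocln in the Aqp4/Hao2 cluster differed by at most 1.17-fold in any of the 3 comparisons, and every one of their intervals spanned 1, while the thinned Tjp3 ratios against PBS were larger, on few UMIs, as given above. Cgn was 1.35-fold lower (1.22 to 1.49) in BT mutant than in BT WT there, at 76.1 against 103 CPM, and was lower in all 11 clusters compared, with an interval below 1 in 7.

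Across the 19 pairs of epithelial cluster and library used for likeness, log levels of Tjp1 and Cgn went together with Pearson's r = 0.97, Tjp1 and Ocln with 0.85, Cldn3 and Cldn23 with 0.75 and Cldn2 and Cldn15 with 0.73, while Cldn15 and Tjp1 went against each other with -0.88. These are descriptions, since the points share 3 libraries and differ in depth. Only clusters with at least 50 cells in a library entered, so the stem/TA-like and enteroendocrine-like clusters and cluster 14.1, where Cldn2 and Cldn15 were highest, are not among them, and for Cldn2 most points are low. Of 2607 other genes with high enough levels, those most like Cldn2 were Kcne3 (r = 0.95), a potassium channel subunit of crypt cells, Clca3b (0.92) and Hnrnpa1 (0.92). Most like Cldn15 were Emc6 (0.97), Tomm5 (0.96) and Akr7a5 (0.95), and most like Cldn4 were Cd164 (0.93), F3 (0.93), which encodes tissue factor, and Ccl6 (0.92). Cab39 (0.89), Coro1c (0.89) and Cdkn2b (0.88) were most like Cldn23, and Kif13b (0.98), Akap13 (0.97) and Fbxo32 (0.96) most like Tjp1.

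Other junction genes were read from 7 wider lists, over whole classes and not in the deep colonocyte-like clusters alone. The uneven filling of the colonocyte-like class was therefore not separated from their values. In colonocyte-like cells, 13 of 22 measurable other tight junction proteins were at least 1.5-fold higher in BT WT than in PBS and 0 lower. Of all genes, 34.4% were higher and 17.7% lower. The list's median log2 ratio was 0.62, against 0.25 over all genes. BT mutant over PBS had 6 of 22 higher and 0 lower, where 19.6% of all genes were higher and 14.5% lower. BT mutant over BT WT had 0 higher and 4 lower, where 10.4% of all genes were higher and 19.9% lower. The most abundant of them, the adhesion molecule Cxadr, read 263, 552 and 437 CPM in PBS, BT WT and BT mutant. The largest difference in BT WT over PBS was that of Lsr, the angulin of junctions where cells meet in corners, at 7.98, 23.8 and 8.40 CPM. Lsr was higher in goblet-like cells and level across the libraries there, at 117, 117 and 118 CPM. In the Aqp4/Hao2 cluster 0 of 22 were at least 1.5-fold apart in BT WT over PBS, against 13.8% of all genes. BT mutant over BT WT had 0 higher and 2 lower, against 15.9% of all genes either way. The furthest of these was Amotl2, an angiomotin-family protein, at 9.70, 9.5 and 4.38 CPM.

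Of the other claudins only 2 of 6 had enough UMIs in colonocyte-like cells. Cldn8, a sealing claudin of the distal colon, read 17.9, 32.1 and 17.8 CPM in the Aqp4/Hao2 cluster, 1.79-fold higher (1.39 to 2.33) in BT WT than in PBS and 1.80-fold lower (1.49 to 2.19) in BT mutant than in BT WT. BT WT was also the highest of the libraries in colonocyte-like cells, at 7.35, 15.3 and 8.91 CPM. Among genes of the other cell junctions, in colonocyte-like cells 3 of 7 adherens junction genes were at least 1.5-fold higher in BT WT than in PBS, with Nectin2 the furthest apart (74.7, 161 and 107 CPM), and 2 of 7 desmosome genes were, with Pkp3 the furthest (50.5, 96.0 and 110 CPM). Both shares lie near the 34.4% of all genes that were higher. None of the 7 of either list was in the Aqp4/Hao2 cluster in BT WT over PBS, where 13.8% of all genes were apart either way. In BT mutant over BT WT 1 of 7 adherens junction genes was lower there, where 15.9% of all genes were apart either way. That gene was Vcl (vinculin), at 46.6, 49.4 and 30.5 CPM. The most abundant desmosome gene, the cadherin Dsg2, read 365, 633 and 556 CPM in colonocyte-like cells, and Dsc2 read 51.2, 42.7 and 75.9 CPM. E-cadherin (Cdh1), the core adhesion protein of epithelia, read 328, 590 and 461 CPM in colonocyte-like cells and 311, 403 and 303 CPM in the Aqp4/Hao2 cluster.

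Among the partners of claudins and their proteases, Epcam, which stabilizes claudin 7, read 2992, 2566 and 3385 CPM in colonocyte-like cells and 1468, 1766 and 1775 CPM in the Aqp4/Hao2 cluster. The protease gene Prss8 was 2.41-fold lower (1.81 to 3.23) in BT mutant than in PBS in colonocyte-like cells, at 4.28 against 10.3 CPM. Ezr, which links membrane and actin, read 1073, 546 and 909 CPM in colonocyte-like cells. It was 1.96-fold lower (1.91 to 2.02) in BT WT than in PBS, the opposite direction to Tjp1 and Cgn in the same class. The libraries filled that class with different clusters, and Ezr was not read in the deep clusters alone. Myh14, a non-muscle myosin heavy chain of epithelia, read 441, 688 and 721 CPM there. Of 7 transcription factors known to act on tight junction genes, 2 were at least 1.5-fold higher in colonocyte-like cells in BT WT than in PBS, where 34.4% of all genes were. In the Aqp4/Hao2 cluster 0 of 7 were at least 1.5-fold apart in BT WT over PBS or in BT mutant over BT WT (13.8% and 15.9% of all genes). There, 1 of 7 was in BT mutant over PBS (18.8% of all genes), Klf4, 1.53-fold lower (1.48 to 1.58). Cdx2 read 156, 165 and 162 CPM in the Aqp4/Hao2 cluster and 67.4, 72.8 and 119 CPM in colonocyte-like cells. Grhl2, the grainyhead factor of epithelia, read 24.2, 53.7 and 33.3 CPM in colonocyte-like cells and 35.0, 34.4 and 29.4 CPM in the Aqp4/Hao2 cluster. Klf4 read 1267, 1118 and 827 CPM and Klf5 548, 686 and 472 CPM in the Aqp4/Hao2 cluster.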

How the data were processed

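The deposited tables are raw UMI counts, whole numbers for each gene and barcode with no scaling. Their headers record Cell Ranger 5.0.0. STAR and the mm10 build are named too in the submitters' processing notes, and the 10x Genomics 3′ v3 reagents in the labels' protocols. How barcodes were called as cells and which annotation was counted is not given in the sources used here. Members and gene lists were chosen with earlier results of these data known. Barcodes with at least 300 genes and at most 25% mitochondrial UMIs were kept (72.3%, 80.1% and 74.9% in PBS, BT WT and BT mutant). No doublets were removed. The 3 libraries were clustered together (scaling to 10000, 2000 variable genes without mitochondrial, ribosomal, immunoglobulin, T cell receptor, sex-linked and junction genes, 30 components, 15 neighbours, leidenalg 0.10.2, resolution 1.0). Clusters were named by mean log2 marker score (at least 1.5, margin 0.5, at least 3 detected markers), and unclear ones were divided once. That naming rule was set after the clusters were seen. Counts were summed per class and library and given as CPM. Ratios have exact conditional binomial intervals (scipy 1.17.1) and need at least 20 UMIs over both libraries. Classes need 50 cells per library. Shares were read after thinning to 1000 UMIs. The intervals were tested on simulated Poisson counts, the model they assume, so that test does not cover spread between cells or libraries. Likeness is Pearson's r of log2(CPM + 10) over clusters with enough cells, among genes of at least 100 CPM in 1 of them. Named genes were all members, the most abundant gene of each list in colonocyte-like cells, the gene with the largest ratio per comparison (at least 30 UMIs), and the 3 genes most like Cldn2, Cldn4, Cldn15, Cldn23 and Tjp1. The comparisons by cluster and over the deep clusters were added after the data were seen. Gene positions are from GENCODE vM21 (GRCm38) and promoters from RefSeq (GRCm38.p6), where 9 of 10 members matched.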

Additional observations from a re-analysis of the deposited data

How the results depend on the processing

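With 1 library per group these results describe 3 libraries, and the depth limits Cldn2 in colonocyte-like cells (14, 14 and 16 UMIs). Of 31 member ratios of at least 1.5-fold, 380 recomputed values were obtained under the alternatives tried. The direction stayed in 371 of them, and 323 were still at least 1.5-fold. Some alternatives could not turn a ratio of 1.5-fold, and the tally includes them. Dropping the minimum of UMIs gave back the same ratios. Scaling by median ratios or TMM moved all ratios of a class by the same small amount. In colonocyte-like cells, the number of members at least 1.5-fold apart in BT WT over PBS was 7, and 3 in the deep clusters alone. BT mutant over BT WT had 3, and 5 with a mitochondrial limit of 10%, 6 at resolution 2.0 and 0 in the deep clusters. BT mutant over PBS had 6, and 1 with the limit of 10%, 3 with at least 1000 genes per barcode and 3 in the deep clusters. In the deep clusters 32.8%, 19.9% and 29.2% of all genes were at least 1.5-fold apart in these comparisons, in the order given. For the other alternatives the share of all genes was not taken, so their counts say little about the members. As log2 ratios, these turned: Ocln in colonocyte-like cells in BT WT over PBS (-0.40 in the deep clusters), Cldn15 (0.27) and Cgn (-0.21) in colonocyte-like cells in BT mutant over PBS with the limit of 10%, and Cldn23 in goblet-like cells in BT mutant over PBS (-0.067 with the limit of 10%, -0.17 after doublet removal, which took 113, 499 and 402 cells). With each library clustered apart, Cldn2 and Cldn15 in goblet-like cells turned in BT WT over PBS (5.14 and 4.44) and in BT mutant over BT WT (-3.86 and -2.74). The cause was not tested for any of these. Cldn4 in BT mutant over BT WT kept its direction in every alternative that gave a value, between -2.36 and -2.11 in the Aqp4/Hao2 cluster, -2.93 and -0.96 in goblet-like cells and -1.27 and -0.41 in colonocyte-like cells. In colonocyte-like cells over PBS it ranged from -0.64 to 0.66. Scaling by median ratios or TMM moved all colonocyte-like log2 ratios by -0.24 and -0.25 (BT WT over PBS), 0.13 and 0.15 (BT mutant over BT WT) and -0.11 and -0.10 (BT mutant over PBS). The Aqp4/Hao2 cluster was not found at resolution 2.0, with junction genes kept for clustering, or in either BT library with each library clustered apart, and kept only 33 PBS cells with the limit of 10%, too few to compare. Selecting deep clusters and leaving out the shallow cluster were chosen after seeing the data. No paired analysis was possible because each group had 1 library.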
